A study of Mus musculus with 32 samples.

Results

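A set of 10 genes of muscle fat use and its control by the peroxisome proliferator-activated receptors (PPARs) is described here in mouse quadriceps: Ppargc1a, Ppara, Ppard, Cpt1b, Cd36, Lpl, Pdk4, Ucp3, Fabp3 and Angptl4. They were taken by gene name, and each name matched 1 of the 53801 gene IDs of the deposited tables. RNA sequencing covered 32 mice, 1 library each, in 8 groups of 4. Mice were wild type (WT) or Col6a2-/-, homozygous for the knockout allele tm1(KOMP)Vlcg of Col6a2, whose product is 1 of the chains of the matrix protein collagen VI. They were 5 or 25 weeks old and female or male. Per the labels, all groups came from heterozygous parents of a C57BL/6N line backcrossed for 5 generations to C57BL/6J. The series title concerns collagen VI and the availability of the growth factor TGFβ in skeletal muscle.

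PPARs are nuclear receptors that bind fatty acids and their derivatives and, paired with a retinoid X receptor, switch on genes for the uptake and burning of fat. In skeletal muscle PPARα and PPARδ (Ppara, Ppard) do this with the coactivator PGC-1α (Ppargc1a), and their target genes typically rise in fasting, exercise and in oxidative fibres. The targets fall along the path of the fatty acid: release from lipoproteins in the capillary (Lpl, restrained by Angptl4), entry and binding in the cell (Cd36, Fabp3), entry into the mitochondrion (Cpt1b), and the switch away from glucose or the handling of surplus fatty acids (Pdk4, Ucp3).

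Whole muscle sections were sequenced, so a lower or higher share of a cell type and less or more RNA per cell cannot be told apart. Col6a2 was at most 0.171 TPM (a transcript level scaled for gene length and to the same total in every library) in the 16 Col6a2-/- libraries and 6.60 to 51.2 TPM in the 16 WT libraries, so every library matched its labelled genotype. The 6 skeletal muscle markers summed to between 10328 and 16700 TPM in every library. Mitochondrial transcripts took 31.9% to 46.9% of the TPM and the small RNA genes of the Rn7s family 20.8% to 30.5%, so all other genes shared 28.4% to 44.2%. Inferred depth ran from 6.78 to 13.69 gigabases and serves only as a relative measure. Some libraries stood apart in values that touch the results. WT 25-week male 4 had 6.35 TPM of summed slow-fibre markers, against 258 to 328 TPM in the other WT males of that age. Col6a2-/- 5-week female 4 had 48.5 TPM of summed macrophage markers, against 106 to 180 TPM in the other Col6a2-/- females of that age. Col6a2-/- 25-week female 4 had 1475 TPM of slow-fibre markers, the highest of all libraries, against 550 to 760 TPM in its group. Col6a2-/- 5-week female 3 had 35.2 TPM of summed brown adipocyte markers, against at most 9.68 TPM in any other library. Col6a2-/- 5-week female 2 had 12877 genes at 1 TPM or more, against 10903 to 11914 in the other Col6a2-/- females of that age. Its factor in the median-of-ratios scaling used below was 1.44, the largest of all libraries. These were noticed from the data, and values without them stand beside the results they move most.

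Promoters of 7 of the 10 genes were in the RefSeq table for build GRCm38.p6 (all but Cpt1b, Lpl and Angptl4). PPARs with their partner bind a direct repeat of the motif AGGTCA with 1 base between the repeats. The exact repeat was in 0 of the 7 promoters, searched on both strands from 250 bases before to 50 bases after the start, and in 0.0396% of all 32851 promoters of the table. With any base allowed at the fourth place of each motif the count was 0 of 7, against 0.381% of all promoters. A single AGGTCA was in 2 of 7 promoters, Ucp3 and Cd36, against 16.3% of all promoters. The element of the estrogen-related receptors, TCAAGGTCA, which contains the same motif, was in 0 of 7 and in 0.423% of all. These are matches of letters in a short window, not binding sites. The 250 bases before the RefSeq start are shown 5′ to 3′ on the strand of the gene for these 2 genes, and for Pdk4, which moved most closely with Ucp3 across libraries and holds no such motif there. Capitals mark AGGTCA or its reverse complement.
Ucp3, chr7:100472741-100472990, plus strand: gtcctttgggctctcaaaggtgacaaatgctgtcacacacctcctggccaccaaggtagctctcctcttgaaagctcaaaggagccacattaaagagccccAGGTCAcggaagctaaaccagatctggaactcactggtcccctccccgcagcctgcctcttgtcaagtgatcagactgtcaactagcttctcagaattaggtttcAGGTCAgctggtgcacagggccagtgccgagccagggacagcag
Cd36, chr5:17835897-17836146, minus strand: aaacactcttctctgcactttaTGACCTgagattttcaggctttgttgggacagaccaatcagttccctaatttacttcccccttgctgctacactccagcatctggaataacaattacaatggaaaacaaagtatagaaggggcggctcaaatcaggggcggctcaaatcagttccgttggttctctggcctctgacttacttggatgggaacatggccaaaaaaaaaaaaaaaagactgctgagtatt
Pdk4, chr6:5496279-5496528, minus strand: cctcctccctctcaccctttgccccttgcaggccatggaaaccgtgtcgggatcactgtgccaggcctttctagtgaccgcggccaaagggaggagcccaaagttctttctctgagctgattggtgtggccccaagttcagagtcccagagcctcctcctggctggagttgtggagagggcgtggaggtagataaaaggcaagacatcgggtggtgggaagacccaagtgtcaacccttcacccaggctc
The Ucp3 matches lie at bases -149 to -144 and -44 to -39 from the start, and that of Cd36 at -228 to -223 on the opposite strand. The RefSeq start of Cd36 used here lies inside the gene as the deposited tables bound it (chromosome 5, 17781690 to 17888801), so other starts of Cd36 were not searched.

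All 10 genes were expressed, over a wide range of levels. On GRCm38, as the deposited tables bound them, Fabp3 lies on chromosome 4 (130308595 to 130315463), Lpl on chromosome 8 (68880491 to 68907448), Cpt1b and Ppara on chromosome 15 (89416405 to 89425863 and 85734983 to 85802819), Ppard and Angptl4 on chromosome 17 (28232754 to 28301469 and 33773750 to 33781575). Ppargc1a lies on chromosome 5 (51454250 to 51567726), Pdk4 on chromosome 6 (5483351 to 5496309) and Ucp3 on chromosome 7 (100472990 to 100486432). Fabp3, the fatty acid binding protein of heart and muscle cytosol, had the highest mean over the 32 libraries, 303 TPM, followed by Cd36, the fatty acid transporter of the cell surface, at 113 TPM. Next came Pdk4, the kinase that switches off pyruvate dehydrogenase, at 86.4 TPM, and Lpl, lipoprotein lipase, at 81.3 TPM. Cpt1b, the muscle carnitine palmitoyltransferase of the outer mitochondrial membrane, had 56.0 TPM and Ucp3, an uncoupling protein family member of muscle mitochondria, 17.8 TPM. The regulators were low. Ppargc1a had 5.32 TPM, Ppara 4.17 TPM, Angptl4, the secreted inhibitor of lipoprotein lipase, 3.64 TPM, and Ppard 1.59 TPM. Fabp3 was above Cd36, Cpt1b above Ucp3, and Ucp3 above Ppargc1a in 32 of 32 libraries. Other neighbours in this order overlapped: Pdk4 was above Lpl in 14 of 32 libraries, Ppara above Angptl4 in 20, and Angptl4 above Ppard in 22.

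**Figure D1:**
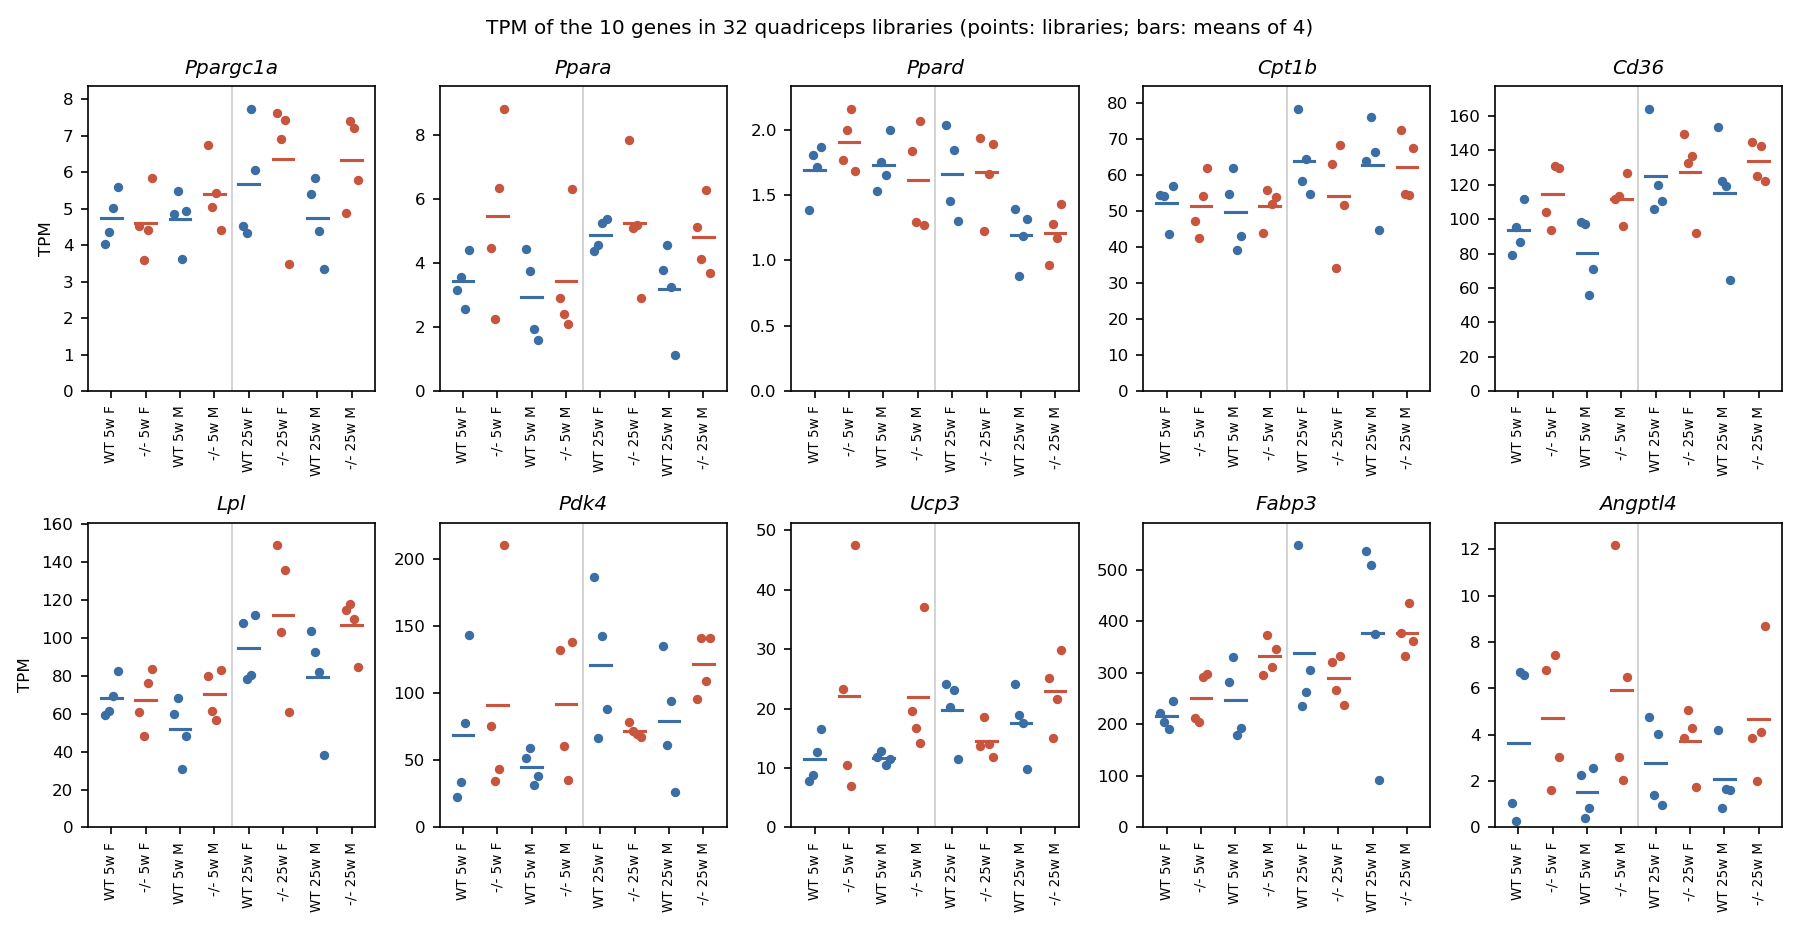
TPM (linear axis from 0) of each of the 10 genes in the 8 groups of 4 mice, 1 point per library and a bar at the group mean, WT in blue and Col6a2-/- in red. Pdk4, Ucp3 and Angptl4 scatter widely within groups, Cpt1b and Ppard little, and no gene separates the genotypes at both ages.

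The genes also differed in their scatter between mice of a group. The SD within groups on the log2(TPM + 1) scale was 0.82 for Angptl4, 0.81 for Pdk4 and 0.57 for Ucp3, and 0.16 for Ppard, 0.27 for Cpt1b and 0.28 for Ppargc1a. Angptl4 ran from 0.276 to 12.2 TPM over the 32 libraries and Pdk4 from 22.7 to 210.5 TPM, while Cpt1b stayed within 34.0 to 78.4 TPM. WT 25-week male 4 was the lowest of all 32 libraries for 3 of the 10 genes. It was the lowest of its group for 8, as were Col6a2-/- 5-week female 2 and Col6a2-/- 25-week female 4 of theirs. Col6a2-/- 5-week female 4 was the highest of all 32 for Pdk4 (210.5 TPM), Ucp3 (47.5 TPM) and Ppara (8.82 TPM).

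Loss of Col6a2 at 5 weeks was compared over 8 WT and 8 Col6a2-/- mice, sexes weighted equally. One of the 10 genes, Cd36, was higher in Col6a2-/- muscle past the threshold (limma, Benjamini-Hochberg adjusted p under 0.05 over 12817 tested genes). Of all tested genes, 25.4% passed in this comparison and 23.2% passed as higher in Col6a2-/-, so 1 in 10 is not above the background. At an unadjusted p under 0.05 there were 3 of the 10 (Cd36, Ucp3 and Angptl4), against 38.7% of all genes. All 10 estimates were positive, but the whole table was shifted: its median was 0.15 on the log2 scale, 7 of the 10 lay above that, and the median of the 10 was 0.32. With median-of-ratios scaling, which removes this shift, 7 of the 10 were positive and their median was 0.16. That scaling also moved the share of called genes that were higher from 91.6% to 51.1%, and quantile normalization moved it to 45.8%.

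Among the uptake genes, Cd36 ran from 55.9 to 112 TPM (median 91.1) in WT and from 93.6 to 131 TPM (median 112) in Col6a2-/- mice at 5 weeks. Every Col6a2-/- library was above the WT mean of its sex, although the groups overlapped between 93.6 and 112 TPM. The log2 change was 0.39 (SE 0.15, 95% interval 0.10 to 0.69, adjusted p = 0.0462), which is 0.25 above the median of all genes. This call did not withstand other processing: it was lost under 5 of the 10 other settings and in 18 of 32 fits that left out 1 library, 7 of them fits without a 25-week mouse, whose adjusted p lay between 0.0503 and 0.0515, and rescaling to the median of ratios gave 0.20 (adjusted p = 0.44). Cd36 is also abundant in endothelium and macrophages. Of 8 endothelial markers 5 were called higher in Col6a2-/- mice at this age, with sums of 82.5 to 149 TPM in WT and 94.5 to 166 TPM in Col6a2-/- mice. All 8 macrophage markers were called higher, with sums of 43.1 to 73.4 TPM and 48.5 to 180 TPM, and the part of these markers in the change of Cd36 was not tested. Fabp3 had a mean of 231 ± 52.2 TPM in WT and 291 ± 58.8 TPM in Col6a2-/- mice (SD, n = 8), a log2 change of 0.34 (SE 0.24, adjusted p = 0.296). Lpl had a median of 60.8 TPM in WT (30.8 to 82.6) and 68.7 TPM in Col6a2-/- mice (48.3 to 83.3), a log2 change of 0.22 (SE 0.19, adjusted p = 0.409).

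Ucp3 and Angptl4 had larger estimates than Cd36 and missed the threshold. Ucp3 was 11.8, 12.9, 10.4 and 11.5 TPM in the 4 WT males and 19.5, 16.8, 14.2 and 37.1 TPM in the 4 Col6a2-/- males of 5 weeks, so the male groups did not overlap. Of all genes, 10.9% had groups that did not overlap in that comparison, and the change of 0.76 in males (SE 0.37) had an adjusted p of 0.252 by limma. WT females had 7.88, 8.81, 12.6 and 16.6 TPM and Col6a2-/- females 23.3, 10.6, 7.02 and 47.5 TPM of Ucp3. Of the Col6a2-/- females 2 lay above every WT female, 1 within their range and 1 below it. The change in females was 0.60, and 0.13 (SE 0.33, adjusted p = 0.794) without Col6a2-/- 5-week female 4. Over both sexes its log2 change was 0.68 (SE 0.26, 95% interval 0.14 to 1.22, adjusted p = 0.0559). It was called in 5 of 32 fits without 1 library: 0.88 (adjusted p = 0.0102) without Col6a2-/- 5-week female 3, and adjusted p from 0.0385 to 0.0498 without WT 5-week female 4, WT 25-week male 4, Col6a2-/- 5-week female 2 or Col6a2-/- 5-week male 3.

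Angptl4 was 1.04, 0.276, 6.72 and 6.56 TPM in WT females of 5 weeks and 6.79, 1.62, 7.46 and 3.04 TPM in Col6a2-/- females. In males it was 2.26, 0.402, 0.821 and 2.58 TPM in WT and 12.2, 3.05, 2.05 and 6.49 TPM in Col6a2-/- mice. The female groups overlapped over nearly their whole range, and in males a single Col6a2-/- library lay below the highest WT values. The log2 change over both sexes was 0.94 (SE 0.38, 95% interval 0.17 to 1.72, adjusted p = 0.0653), and with the replicate number as a block its adjusted p was 0.0397. It was also called without WT 5-week female 3 or 4, or without Col6a2-/- 5-week female 2, female 4 or male 3 (adjusted p from 0.0319 to 0.0491). Without Col6a2-/- 5-week female 3, the library with the most brown adipocyte markers, the change was 0.82 (adjusted p = 0.121). Summed adipocyte markers ran from 18.8 to 304 TPM in WT and from 71.5 to 447 TPM in Col6a2-/- mice of this age, with 0 of 7 markers called, and their part in the Angptl4 estimate was not tested.

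For the regulators and the mitochondrial step the intervals were narrower and included no change. On this scale the added 1 narrows the interval of a low gene such as Ppard. Ppargc1a changed by 0.06 (SE 0.13, adjusted p = 0.77), Ppard by 0.02 (SE 0.08, adjusted p = 0.881) and Cpt1b by 0.02 (SE 0.13, 95% interval -0.25 to 0.29, adjusted p = 0.928). Ppara changed by 0.30 (SE 0.22, adjusted p = 0.314), and by 0.18 (SE 0.22, adjusted p = 0.522) without Col6a2-/- 5-week female 4. Pdk4 had a median of 45.2 TPM in WT (22.7 to 143) and 68.4 TPM in Col6a2-/- mice (34.7 to 210.5), and its log2 change of 0.61 (SE 0.37) had a 95% interval of -0.15 to 1.36. Without Col6a2-/- 5-week female 4, the count at 5 weeks was again 1 of the 10, against 37.1% of all genes. Cd36 then had an adjusted p of 0.0623 and Angptl4 one of 0.0491, and the changes of Ucp3 and Pdk4 were 0.45 and 0.34.

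**Figure D2:**
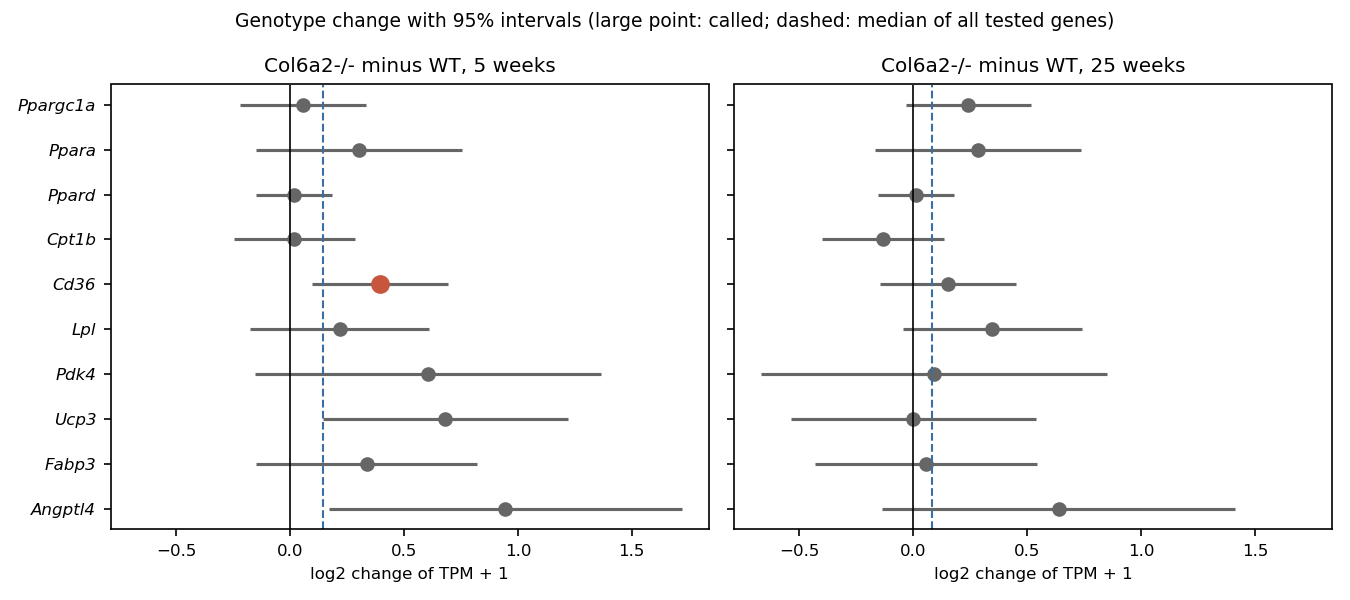
Log2 change of TPM + 1, Col6a2-/- minus WT, of the 10 genes at 5 and at 25 weeks with 95% intervals from limma (8 mice per genotype and age). The large point marks Cd36 at 5 weeks, the 1 call, and the dashed lines mark the median change of all tested genes, 0.15 at 5 and 0.08 at 25 weeks.

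In the older mice the genotypes differed past the threshold in 0 of the 10 genes by limma, and 0 had an unadjusted p under 0.05, while 4.7% of all tested genes were called and 19.3% had an unadjusted p under 0.05. The share called was 7.55% without Col6a2-/- 5-week female 4 and 2.85% without Col6a2-/- 25-week female 4, with 0 of the 10 in both. With all libraries the largest estimate was again that of Angptl4. Its level ran from 0.83 to 4.78 TPM in WT and from 1.76 to 8.70 TPM in Col6a2-/- mice, a log2 change of 0.64 (SE 0.38, 95% interval -0.14 to 1.41, adjusted p = 0.367). Lpl changed by 0.35 (SE 0.19, adjusted p = 0.327) and Ppargc1a by 0.24 (SE 0.13, adjusted p = 0.334). The 7 adipocyte markers had a median log2 change of 0.68 at this age, with 0 called. Their part in the estimates of Angptl4 and Lpl was not tested. Cd36 had 120 ± 30.3 TPM in WT and 131 ± 18.3 TPM in Col6a2-/- mice (SD, n = 8), a change of 0.15 (SE 0.15, adjusted p = 0.61). WT 25-week male 4 carried part of these estimates. Without it the change of Lpl was 0.19, that of Cd36 0.03 and that of Fabp3 -0.24 in place of 0.06, with 0 of the 10 called. The estimates of Pdk4 and Ucp3 at this age were then -0.13 and -0.12, in place of 0.09 and 0.00.

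The change with genotype was not shown to differ between ages or sexes for any of the 10 genes. In the genotype by age term 0 of 10 were called by limma, against 0.492% of all genes, and 0 had an unadjusted p under 0.05, against 7.01%. The share of all genes called in this term was 1.79% without Col6a2-/- 5-week female 4, again with 0 of the 10. The largest such difference was that of Ucp3, -0.68 (SE 0.37, adjusted p = 0.791): its change was 0.68 at 5 weeks and 0.00 at 25 weeks. It was -0.45 without Col6a2-/- 5-week female 4 and -0.80 without WT 25-week male 4. In the genotype by sex term 9 of 10 differences were positive (more positive in males), 0 were called, against 0.0156% of all genes, 0 had an unadjusted p under 0.05, against 1.61%, and the largest was that of Pdk4, 0.96 (SE 0.52, adjusted p = 1). It was 1.22 without Col6a2-/- 5-week female 4 and 0.74 without WT 25-week male 4, with an adjusted p of 1 in both.
At 25 weeks Pdk4 was 186, 66.5, 143 and 88.0 TPM in WT females and 78.5, 72.2, 69.8 and 67.1 TPM in Col6a2-/- females. In males of that age it was 135, 61.3, 94.0 and 26.7 TPM in WT and 95.4, 141, 109 and 142 TPM in Col6a2-/- mice. The Col6a2-/- females were closely grouped at the low end of the WT females, and the Col6a2-/- males lay in the upper range of the WT males and above it. The log2 changes were -0.63 in females and 0.82 in males (SE 0.52 each, adjusted p = 1 and 0.395). Without WT 25-week male 4 the change in males was 0.38 (SE 0.53, adjusted p = 0.712). Within each sex and age, limma called 0 of the 10 genes. At 5 weeks the share of all genes called was 12.9% for females and 5.03% for males, and at 25 weeks it was 0.0078% for females and 3.03% for males. Leaving out Col6a2-/- 5-week female 4 took the shares at 5 weeks to 30.2% for females and 7.18% for males. At 25 weeks they were then 0.0234% and 6.14%. With only the groups compared, 108 of 11412 genes were called in 5-week females and 514 of 11951 in 5-week males. In the fit to all libraries, 3 of the 10 had an unadjusted p under 0.05 in the young males (Cd36, Ucp3 and Angptl4), against 19.6% of all genes. In the young females there were 0, against 29.3%, and in the older females and males 0, against 4.85% and 19.8%.

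The ages were compared within each genotype, 8 mice of 25 weeks with 8 of 5 weeks. In WT mice 9 of the 10 estimates were positive, while the median of all tested genes was -0.08, and the median of the 10 was 0.37. By limma 1 gene, Cd36, was called, and 6 had an unadjusted p under 0.05, against 31.9% of all tested genes. Of all tested genes 19.8% were called, 4.47% as higher and 15.3% as lower. With median-of-ratios scaling the called higher share was 13.6%, 9 of the 10 were again positive and their median was 0.48. These values share their 5-week WT mice with the genotype comparison at 5 weeks, in which the same Cd36 values are the lower group.

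Cd36 went from 55.9 to 112 TPM (median 91.1) at 5 weeks to 64.7 to 164 TPM (median 120) at 25 weeks in WT, with 7 of 8 older mice above the younger mean of their sex. The log2 change was 0.44 (SE 0.15, 95% interval 0.15 to 0.74, adjusted p = 0.03), and it lost its call in 8 of 32 fits that left out 1 library (adjusted p from 0.053 to 0.082), without a filter on low values (0.0697) and with only the groups compared (0.0604). The 8 libraries were WT 5-week females 1 and 3, WT 5-week males 3 and 4, WT 25-week female 1 and WT 25-week males 1, 2 and 3. Lpl went from a median of 60.8 TPM (30.8 to 82.6) to 87.4 TPM (38.1 to 112), a change of 0.51 (SE 0.19, adjusted p = 0.057). Beside WT 25-week male 4, leaving out WT 5-week male 2, Col6a2-/- 5-week female 2 or Col6a2-/- 25-week female 4 brought Lpl past the threshold (adjusted p from 0.0342 to 0.0483). Both genes belong to fatty acid delivery, and in both the 1 older mouse that did not follow was WT 25-week male 4.

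Fabp3 was 536, 509, 374 and 91.7 TPM in the 4 WT males of 25 weeks and 282.5, 330.0, 180.0 and 193 TPM in those of 5 weeks. Male 4 was the lowest of all 32 libraries for Fabp3, below every 5-week mouse, and the other 3 older males were above every younger male. With all libraries the log2 change of Fabp3 was 0.48 (SE 0.24, adjusted p = 0.166), and without that library it was 0.77 (SE 0.15, adjusted p = 0.000623). That mouse also had the lowest slow-fibre markers (6.35 TPM), 608 TPM of summed mitochondrial β-oxidation genes against 1038 to 1162 TPM in the other 3, and 32747 TPM of fast-fibre markers against 21244 to 22032 TPM. The part of these markers in the age changes was not tested.

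Without WT 25-week male 4 the number of the 10 genes called with age in WT went from 1 to 6 (Cpt1b, Cd36, Lpl, Pdk4, Ucp3 and Fabp3, all higher at 25 weeks), against 20.2% of all tested genes. Their log2 changes were then 0.38 for Cpt1b (adjusted p = 0.0341), 0.57 for Cd36 (0.002), 0.67 for Lpl (0.00608), 1.04 for Pdk4 (0.0414) and 0.74 for Ucp3 (0.0486), beside that of Fabp3 above. That library was set aside after its values were seen, although leaving out each library in turn was planned. With it kept, Cpt1b changed by 0.30 (adjusted p = 0.101), Pdk4 by 0.82 (0.123) and Ucp3 by 0.62 (0.0984). Pdk4 was also called without WT 5-week female 4 (adjusted p = 0.0429), and Ucp3 without Col6a2-/- 5-week female 4 (0.0398) and with only the groups compared (0.0204). With variable libraries given less weight (array weights) 6 of the 10 were called as well, while median-of-ratios scaling called 3 (Cd36, Lpl and Cpt1b).

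**Figure D3:**
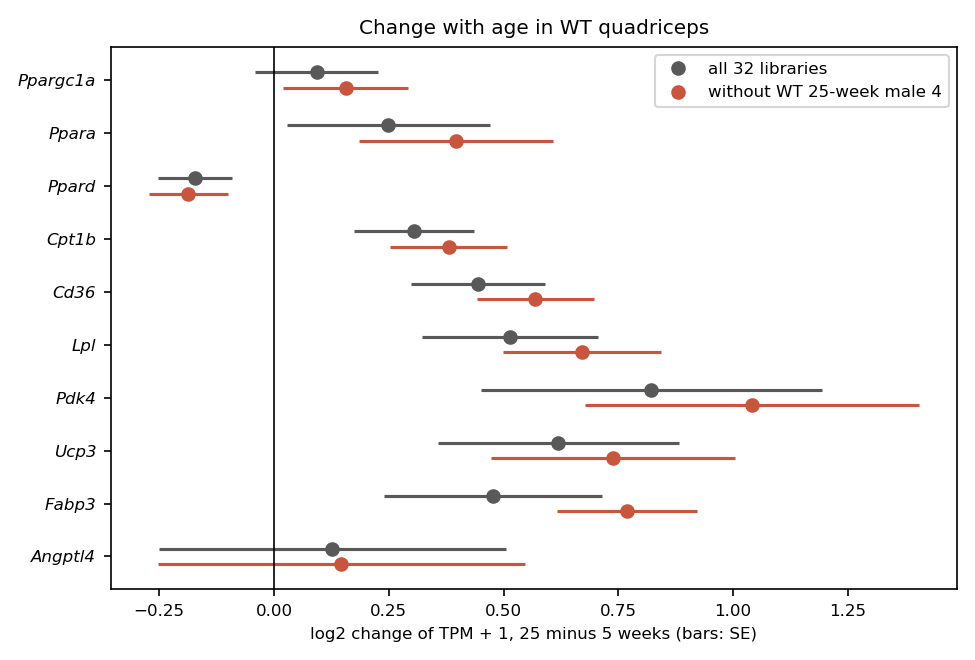
Log2 change of TPM + 1 from 5 to 25 weeks in WT mice with all 32 libraries (grey) and without WT 25-week male 4 (red); bars are the SE from limma. Fabp3 moves most when that library is left out, from 0.48 to 0.77, while Ppard is negative and Angptl4 near 0 in both.

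The receptors, the coactivator and Angptl4 were not called with age in WT mice. Ppara changed by 0.25 (SE 0.22, adjusted p = 0.476), Ppargc1a by 0.09 (SE 0.13, adjusted p = 0.681) and Ppard by -0.17 (SE 0.08, adjusted p = 0.141). Angptl4 changed by 0.13 (SE 0.38, adjusted p = 0.855). Without WT 25-week male 4 the change of Ppara was 0.40 (SE 0.21, adjusted p = 0.194) and that of Ppargc1a 0.16 (SE 0.14, adjusted p = 0.456), and none of the 4 passed the threshold. Whether these estimates differ from those of the other genes was not tested.

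In Col6a2-/- mice 1 of the 10 genes was called with age, Lpl, where 34.2% of all tested genes were called and 5.41% called as higher (16.7% with median-of-ratios scaling). At an unadjusted p under 0.05 there were 3 of the 10, against 44.1% of all genes. Lpl was 61.0, 48.3, 76.1 and 83.3 TPM in Col6a2-/- females of 5 weeks and 149, 103, 136 and 61.0 TPM in those of 25 weeks. In Col6a2-/- males it was 80.1, 61.4, 56.7 and 83.0 TPM at 5 weeks and 115, 118, 110 and 84.8 TPM at 25 weeks. All 4 older males and 3 of 4 older females were above every younger mouse of their sex, and 25-week female 4 was the exception. The log2 change was 0.64 (SE 0.19, 95% interval 0.25 to 1.04, adjusted p = 0.0105), and this call held in every one of the 32 fits without 1 library. Lpl is also abundant in adipocytes. Summed adipocyte markers ran from 71.5 to 447 TPM at 5 weeks and from 128 to 602 TPM at 25 weeks in these mice, with 1 of 7 called higher, and their part in the change of Lpl was not tested.
Cd36 changed by 0.20 (SE 0.15, adjusted p = 0.292), Fabp3 by 0.20 (SE 0.24, adjusted p = 0.548) and Ucp3 by -0.06 (SE 0.26, adjusted p = 0.877) with age in Col6a2-/- mice. Without Col6a2-/- 5-week female 4 the estimate of Ucp3 turned to 0.17 (SE 0.23, adjusted p = 0.557). Ppargc1a changed by 0.28 (SE 0.13, adjusted p = 0.112) and Ppard by -0.18 (SE 0.08, adjusted p = 0.0872). Ppargc1a was called without Col6a2-/- 25-week female 4 (0.39, adjusted p = 0.0145), and with median-of-ratios scaling, quantile normalization and array weights (adjusted p from 0.0318 to 0.0419). Ppard was called without Col6a2-/- 5-week male 4 (-0.21, adjusted p = 0.0443). The test of a different age change in the genotypes is the genotype by age term above, which called 0 of 10.

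Sex, over both ages and genotypes, was tested with 16 females and 16 males. By limma 0 of the 10 genes were called, against 3.05% of all tested genes, and 2 had an unadjusted p under 0.05, against 13.2% of all genes, both lower in males. Ppard had a median of 1.79 TPM in females (1.22 to 2.16) and 1.36 TPM in males (0.880 to 2.07), a log2 change of -0.17 (SE 0.06, adjusted p = 0.118), called with median-of-ratios scaling, quantile normalization and array weights (adjusted p from 0.0323 to 0.0389). Ppara had a median of 4.50 TPM in females (2.24 to 8.82) and 3.71 TPM in males (1.13 to 6.32), a log2 change of -0.35 (SE 0.16, adjusted p = 0.317). Fabp3 changed by 0.23 (SE 0.17, adjusted p = 0.646), and by 0.38 (adjusted p = 0.0445) without WT 25-week male 4. In the sex by age term 0 of 10 were called, against 3.43% of all genes, and 0 had an unadjusted p under 0.05, against 27.3%. The share of all genes called in this term was 1.65% without Col6a2-/- 5-week female 4. Array weights called 3803 of 12817 genes.

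The same path was followed with lists of other genes of fat metabolism, which overlap in part. With age in WT, 9 of 18 tested other PPAR target genes were called, all higher (6 to 11 over the other settings), and 6 of 20 mitochondrial β-oxidation genes were called, all higher (3 to 12). The background in that direction is the 4.47% given above, or 13.6% with median-of-ratios scaling, which called 10 of 18 and 8 of 20. The medians of these lists were 0.36 and 0.28, beside -0.08 for all tested genes. Of 22 genes of fatty acid uptake, activation and storage 2 were called higher and 3 lower, with a median of 0.04, and of 11 peroxisomal β-oxidation genes 3 higher and 1 lower.
Acot2, a mitochondrial thioesterase, rose from 2.64 ± 0.588 to 6.19 ± 3.09 TPM (SD, n = 8), a log2 change of 0.89 (SE 0.17, adjusted p = 0.000334). Hadhb, a subunit of the mitochondrial trifunctional protein, rose from 91.3 ± 14.3 to 130 ± 26.9 TPM, by 0.48 (SE 0.12, adjusted p = 0.00545). These calls held in every fit without 1 library and under each of the 10 other settings.
Also higher in WT at 25 weeks were Acadm, an acyl-CoA dehydrogenase, by 0.42, Mlycd, malonyl-CoA decarboxylase, by 0.46, and Pex11a, a peroxisome proliferation factor, by 0.49. Ech1, a dienoyl-CoA isomerase, was higher by 0.58. Of 24 nuclear receptor partners and coregulators 4 were called, all higher, among them Esrrg by 0.57 and Esrrb by 0.61, both estrogen-related receptors, and Lpin1, a phosphatidate phosphatase and coactivator, by 0.35. Esrrb was low, at 0.404 TPM at 5 and 1.17 TPM at 25 weeks. Vldlr, a lipoprotein receptor, rose by 0.68 (SE 0.08, adjusted p = 9.34e-07) from 18.4 ± 2.27 to 30.8 ± 7.38 TPM (SD, n = 8), while Fabp5, a binding protein of many cell types, fell by 0.80 on the log2 scale and Slc27a4, a fatty acid transport protein, by 0.28, a call lost after rescaling without mitochondrial and Rn7s genes.

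In Col6a2-/- mice the counts with age were 7 higher and 3 lower of 18 other PPAR target genes, and 4 higher and 1 lower of 20 mitochondrial β-oxidation genes. Of the 22 uptake, activation and storage genes 2 were called higher and 7 lower (3 and 5 with median-of-ratios scaling), with a median of -0.05, beside -0.14 for all tested genes. Of all tested genes 5.41% were called higher there, or 16.7% with median-of-ratios scaling, and 28.8% were called lower, or 17.7% with that scaling. In the same comparison 8 of 8 macrophage markers and 5 of 8 endothelial markers were called lower, and their part in these counts was not tested. With genotype at 5 weeks, 5 of 18 other PPAR target genes were called, all higher, beside a background of 23.2%. With median-of-ratios scaling 4 of 18 were called higher and 1 lower, beside a background of 12.3% higher. Ucp2, an uncoupling protein also abundant in macrophages, was 2.25 ± 0.455 TPM in WT and 5.70 ± 1.56 TPM in Col6a2-/- mice (SD, n = 8), a log2 change of 1.02 (SE 0.11, adjusted p = 2.07e-07). Abca1, a cholesterol exporter, was higher by 0.60 and Plin2, a lipid droplet coat protein, by 0.55.
Summed macrophage markers were 43.1 to 73.4 TPM in WT and 48.5 to 180 TPM in Col6a2-/- mice of 5 weeks, with 8 of 8 markers called higher, and their part in the values of Ucp2, Abca1 and Plin2 was not tested. Beside the same background of 23.2% higher, 6 of 22 uptake, activation and storage genes were called, all higher (Acsl5 by 0.53, Lmf1 by 0.34). Of 20 mitochondrial β-oxidation genes 2 were called higher, a smaller share than the background, Eci2 by 0.33 and Slc25a20 by 0.40. The last 3 of these calls, those of Lmf1, Eci2 and Slc25a20, were lost under 2 to 3 of the 10 other settings. Over 42 settings, fits without 1 library included, 3 to 7 of the uptake list and 0 to 8 of the β-oxidation list were called higher. Of the 24 partners and coregulators 4 were called, 2 higher and 2 lower, a smaller share than the 25.4% of all genes, and median-of-ratios scaling called 0 higher and 4 lower. Among them Rxrg, a retinoid X receptor of muscle, fell by 0.49 on the log2 scale (SE 0.10, adjusted p = 0.000782) and Prkaa2, a catalytic subunit of AMP-activated kinase, by 0.32, while Foxo1 rose by 0.40. The call of Foxo1 was lost with median-of-ratios scaling and quantile normalization, and that of Prkaa2 in the fit to only the groups compared and in 3 of 32 fits without 1 library (Col6a2-/- 5-week females 1 and 3 and male 2). Hsd17b4, an enzyme of peroxisomal β-oxidation, was higher by 0.25, and this call was lost under 4 other settings. Fast-fibre markers fell in 4 of 7 cases at this age, where 2.14% of all genes were called lower, and 0 of 7 slow-fibre markers were called. Their part in these changes was not tested. The background of lower calls was larger with median-of-ratios scaling, where 3027 of 12595 genes were called and 1548 of them were higher.
At 25 weeks 1 of 18 other PPAR target genes was called with genotype, Ucp2 (1.69 ± 0.306 and 3.31 ± 0.824 TPM, SD, n = 8, log2 change 0.67, SE 0.11, adjusted p = 0.00105), and 0 of 20 mitochondrial β-oxidation genes, beside 4.7% of all genes. Macrophage markers were called higher in 7 of 8 cases at that age. Between sexes 1.18% of all genes were called lower in males. Of the genes of these lists, Klf15, a transcription factor of fasting metabolism, differed by -0.60 in males relative to females (SE 0.11, adjusted p = 0.00154), Slc27a1, a fatty acid transport protein, by -0.51, Echs1, an enoyl-CoA hydratase, by -0.31 and Mlxipl by -0.37, while Vldlr was higher by 0.31. The calls of Slc27a1 and Echs1 were lost after rescaling without mitochondrial and Rn7s genes.

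Across the mice of a group, several of the 10 genes went up and down together. After the mean of each group was removed, 39 of the 45 pairs had a positive Pearson r over the 32 libraries (median 0.39). By permutation within groups (100000 draws, smallest possible p = 1e-05, adjusted over the 45 pairs), 21 pairs passed an adjusted p of 0.05, all positive. These relations were computed after the data had been seen, and the genes share the library, its depth and the TPM total.
Cd36 and Lpl had r = 0.89 (rho 0.85, permutation p = 1e-05, adjusted p = 0.000321), and r = 0.83 without the 2 libraries farthest from the median of Cd36. Cd36 and Fabp3 had r = 0.87 (rho 0.86, adjusted permutation p = 0.000321, 0.82 without 2 libraries). Ppara and Lpl had r = 0.80 (rho 0.79, adjusted permutation p = 0.000321, 0.73 without 2 libraries).
Pdk4 and Ucp3 formed a second close pair, with r = 0.78 (rho 0.75, adjusted permutation p = 0.000321, 0.71 without 2 libraries), and each was the nearest of all tested genes to the other. Cpt1b was related to 4 of the other 9 genes and Ppargc1a to 4, Angptl4 to Pdk4 (r = 0.56), and Ppard to 0 of 9, with r from -0.35 to 0.26. Angptl4 and Ucp3 had r = 0.38 (adjusted permutation p = 0.109) but rho 0.56 (adjusted permutation p = 0.02), and r = 0.68 without 2 libraries.

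**Figure D4:**
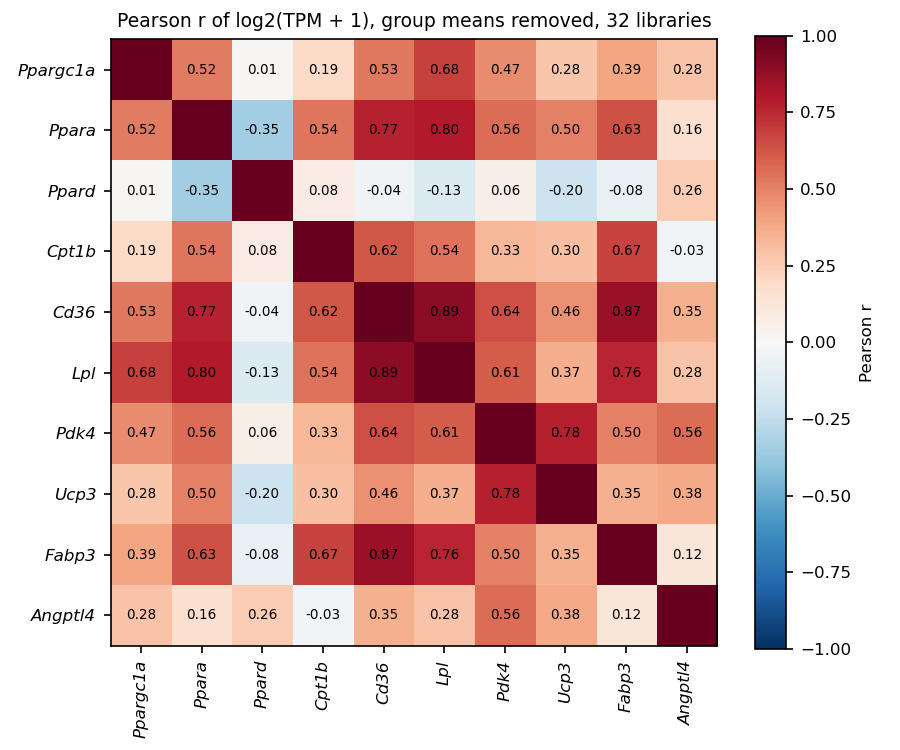
Pearson r of log2(TPM + 1) for each pair of the 10 genes over 32 libraries after removal of the 8 group means (colour scale from -1 to 1). Cd36, Lpl, Fabp3 and Ppara form a block of r from 0.63 to 0.89, and the row of Ppard runs from -0.35 to 0.26.

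Beside the 10 genes themselves, the summed level of the 20 mitochondrial β-oxidation genes followed Cd36 with r = 0.92 (rho 0.89, adjusted permutation p = 0.00065, 0.86 without 2 libraries) and Fabp3 with r = 0.91 (rho 0.92, adjusted permutation p = 0.00065, 0.88 without 2 libraries). Of 130 such relations of the 10 genes with marker sums, depth and the mitochondrial share, 19 passed an adjusted permutation p of 0.05. Fast-fibre markers ran against Fabp3 (r = -0.62, rho -0.59), Cd36 (r = -0.60, rho -0.53) and Lpl (r = -0.62, rho -0.52). These relations were lost when TPM was rescaled without mitochondrial and Rn7s genes, where r was -0.37 for Fabp3 (adjusted permutation p = 0.233), -0.26 for Cd36 (0.457) and -0.29 for Lpl (0.402). The mitochondrial share of the TPM rose with Cd36 (r = 0.77, rho 0.68) and Fabp3 (r = 0.70, rho 0.64), and 0 of 10 genes were related to depth at that threshold.
Angptl4 followed another set of genes. Its r with summed adipocyte markers was 0.79 (rho 0.80, adjusted permutation p = 0.000867, 0.74 without 2 libraries), and with 3 brown adipocyte markers 0.59 (rho 0.68, 0.58 without 2 libraries). All 7 adipocyte markers were detected, and their sum ran from 18.8 to 602 TPM over the 32 libraries. The genes nearest to Angptl4 after removal of the group means were Acvr1c (r = 0.86), Ces1f (0.85) and Lipe (0.85), and over the 32 libraries as they stand Fabp4 (0.84), Pck1 (0.83) and Abhd15 (0.81). Fabp3 with slow-fibre markers had r = 0.68 (rho 0.41), which did not pass the adjusted threshold (permutation p = 0.0405, adjusted p = 0.133). Without the 2 libraries farthest from the median of Fabp3 its r was 0.36, so its size depends in part on those libraries.

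**Figure D5:**
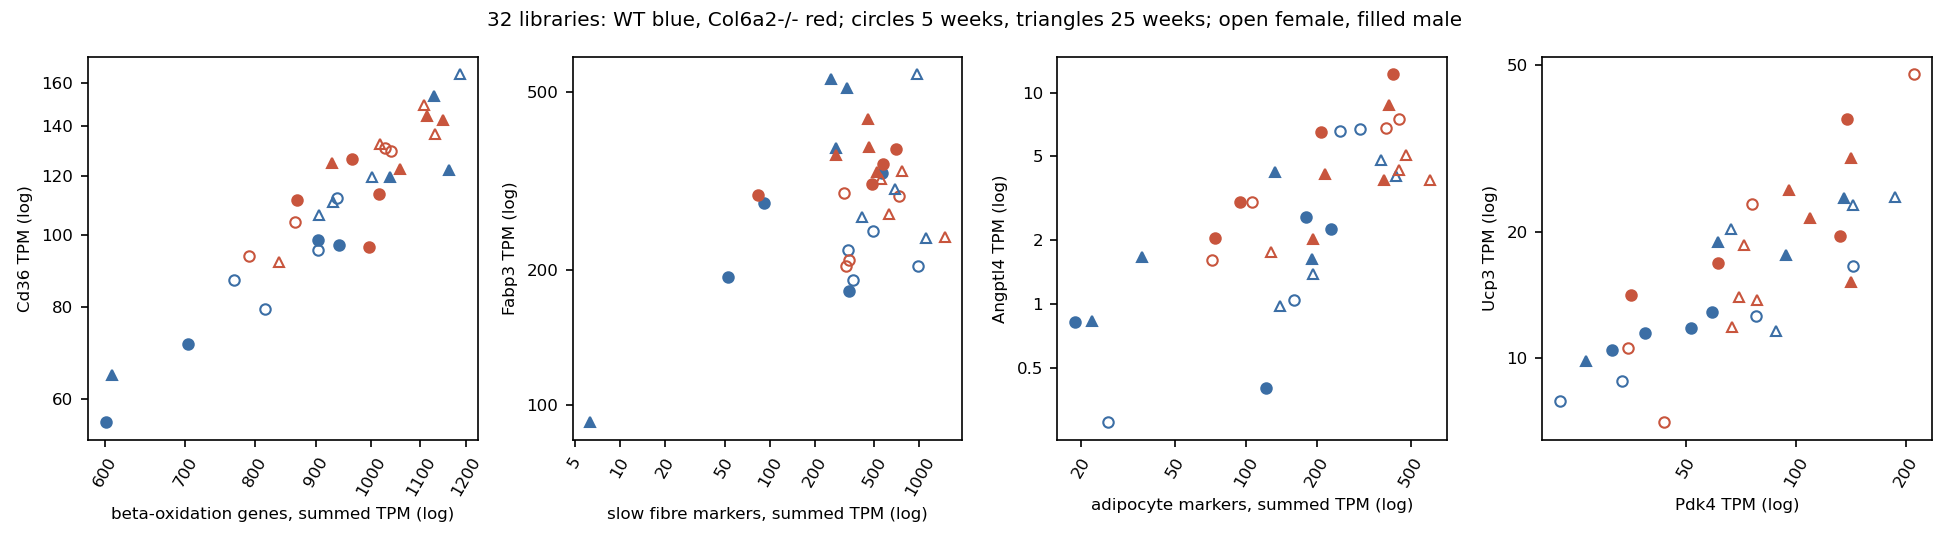
TPM on log axes in 32 libraries (WT blue, Col6a2-/- red, circles 5 weeks, triangles 25 weeks, open female, filled male): Cd36 against summed mitochondrial β-oxidation genes, Fabp3 against slow-fibre markers, Angptl4 against adipocyte markers, and Ucp3 against Pdk4. The first panel is the tightest, and in the second WT 25-week male 4 stands alone at 6.35 TPM of slow-fibre markers and 91.7 TPM of Fabp3.

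The nearest neighbours of the other genes after removal of the group means, of all tested genes, were Acaa2 (r = 0.90), Acadl (0.90) and Ephx2 (0.90) for Cd36, and Acadl (0.90), Cd36 (0.89) and Etfa (0.88) for Lpl. Those of Fabp3 were its pseudogene Fabp3-ps1 (0.99), Hsdl2 (0.96) and Etfdh (0.93). Those of Cpt1b were Ethe1 (0.87), Got1 (0.82) and Slc25a34 (0.81), and those of Ppara Lrrc52 (0.88), Lmod2 (0.82) and Flt1 (0.82). Ppargc1a was nearest to Gm5420 (0.73), Myh1 (0.72) and Padi2 (0.70), and Ppard to Rab11fip3 (0.79), Plec (0.78) and Prrc2a (0.74). Beyond each other, Pdk4 was nearest to Tmem8b (0.68) and Epas1 (0.67), and Ucp3 to Slc25a22 (0.73) and Rnf144b (0.72). These are correlations over 32 libraries, chosen as the highest of 12817, and are given as a description.

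Some levels depend on how shared reads were assigned. Fabp3 shares sequence with the pseudogene Fabp3-ps1 on chromosome 10 (86731987 to 86732388 on GRCm38), whose TPM was 10.4% to 12.6% of that of Fabp3 in every library, so the level of Fabp3 is uncertain by a share of that size. Exons of Cpt1b overlap those of the overlapping gene Gm44502 over 81.4% of their bases, to which a median of 0.0752 TPM was assigned. The last bases of Fabp3 overlap Zcchc17 on the opposite strand (81 bases), and the use of strand is not given in the sources used here. The other 8 genes shared no exon bases with another annotated gene.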

How the data were processed

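Per the labels, RNA came from 10 μm cryosections of snap-frozen quadriceps, sequenced from TruSeq RNA libraries. The submitters' processing notes name HISAT2, StringTie, Trimmomatic and SAMtools, and the builds GRCm38 and mm10. The deposited TPM values, 1 table per mouse, were computed by the authors, as were FPKM. Coverage per gene is also deposited per the file headers, and FPKM and coverage served only to infer relative depth. Because the files hold no counts, the branch of the design for normalised values was used.

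Values were analysed as log2(TPM + 1), which understates fold changes of low genes, for the 12817 genes that reached 1 TPM in 4 or more libraries, the 10 genes included. Group means (8) were estimated from all 32 libraries by limma 3.58.1 in R 4.3.3 (eBayes with trend, two-sided, Benjamini-Hochberg over all tested genes, called at 0.05) for 12 contrasts. The fit was also run on simulated data with independent normal scatter and few changed genes. Those data did not include the shift of the whole table or the outlying libraries seen here. Correlations and plots used Python 3.11.15, numpy 2.4.6, scipy 1.17.1, pandas 2.3.3 and matplotlib 3.10.9. The 10 genes and all lists were chosen with earlier results of these data known. From each list, up to 3 called genes with the smallest adjusted p were named per comparison, and for each of the 10 genes the 3 nearest by Pearson r; some genes this rule takes are not reported here. Replicates are separate mice. No 2 libraries were identical (highest r = 0.984).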

Additional observations from a re-analysis of the deposited data

How the results depend on the processing

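The number of the 10 genes called with genotype at 5 weeks (1) was 0 without a filter, with at least 5 TPM in 4 libraries, with median-of-ratios scaling, after rescaling without mitochondrial and Rn7s genes, and with quantile normalization; with the replicate number as a block it was 2 (Angptl4 joined Cd36, adjusted p = 0.0397). With age in WT (1) it was 0 without a filter, 3 with median-of-ratios scaling or rescaling, and 6 with array weights. With age in Col6a2-/- (1) it was 2, and with sex (0) it was 1, each under median-of-ratios scaling, quantile normalization and array weights. Fits without 1 library gave 0 to 3 at 5 weeks (3 without WT female 4, Col6a2-/- female 2 or Col6a2-/- male 3 of that age), 0 to 6 with age in WT (6 without WT 25-week male 4), 1 to 2 with age in Col6a2-/- (2 without 5-week male 4 or 25-week female 4) and 0 to 1 with sex (1 without WT 25-week male 4). In the other 8 comparisons the count stayed at 0 under every setting run. No called change of a gene took the opposite sign; signs of uncalled changes were not counted. Over all genes, the 603 calls with genotype at 25 weeks became 1967 with array weights, 1271 with median-of-ratios scaling and 343 without a filter, and the 3253 at 5 weeks became 4749 without Col6a2-/- 5-week female 4 and 1878 with only the groups compared. Rescaling, an alternative chosen after seeing the data for the correlations, kept all 21 related pairs but 11 of the 19 related marker sums, losing those with fast-fibre, macrophage and fibroblast markers, and turned the r of Lpl with skeletal muscle markers from -0.51 to 0.059; the cause was not tested. Same-numbered mice of different groups had a median r of 0.03 (-0.34 to 0.35), against -0.01 for mice of other numbers. Of 32 libraries 14 were closest to those of their own number, more than an even spread over the 4 numbers would give. The numbers were not taken to pair the mice, because the labels do not say what they share. Whether they mark a batch was not tested. The fit to only the groups compared gave no value where all 8 groups enter. TPM keeps no counts, so no counting error was given.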

Other observations

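Fatty acid synthesis and the pyruvate dehydrogenase complex are counterparts of fat oxidation. With age in WT, 2 of 12 fatty acid synthesis genes were called, both lower, where 15.3% of all genes were called lower: Scd2, a desaturase, went from 11.9 ± 5.79 to 4.92 ± 1.57 TPM (SD, n = 8) and fell by 1.05 on the log2 scale (limma, adjusted p = 0.00245), and Elovl5, an elongase, fell by 0.47 (adjusted p = 0.00196). Elovl5 was higher in Col6a2-/- mice by 0.36 at 5 weeks, a call lost with median-of-ratios scaling, quantile normalization and only the groups compared, and by 0.35 at 25 weeks, where its adjusted p of 0.0497 was lost in 25 of 32 fits without 1 library. Of 13 genes of the pyruvate dehydrogenase list, 2 were called with genotype at 5 weeks, both higher, where 23.2% of all genes were. Pdk3, a kinase of the complex, was 0.938 ± 0.246 TPM in WT and 1.51 ± 0.405 TPM in Col6a2-/- mice (SD, n = 8, log2 change 0.36, adjusted p = 0.00427), and Pdhx, a structural subunit, was higher by 0.24, a call lost in 8 of 32 such fits and under 4 other settings. With age in WT, 1 gene of that list was called higher, Pdpr by 0.27 (lost without WT 5-week female 3, male 3 or male 4, or WT 25-week female 4 or male 2), beside 4.47% of all genes, and 4 lower, beside 15.3%, among them Pdk3, which fell by 0.32, and Pdhb, which fell by 0.26, a call lost with median-of-ratios scaling and after rescaling without mitochondrial and Rn7s genes. Slow-fibre markers were called lower in males in 2 of 7 cases, where 1.18% of all genes were, and 0 of 7 were called with genotype at 5 or 25 weeks, where 25.4% and 4.7% of all genes were. Of 7 markers of regenerating or denervated fibres 6 were called higher in Col6a2-/- mice at 5 weeks, where 23.2% of all genes were.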
